A study of Mus musculus with 2 samples.

Results

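The genes of the constitutive proteasome were examined in bone marrow-derived macrophages (BMDMs) with and without tristetraprolin (TTP, gene *Zfp36*). Members were the rows of the expression table whose symbol begins with Psma, Psmb, Psmc, Psmd, Psme or Psmf followed by a number. The catalytic subunits of the immunoproteasome, *Psmb8*, *Psmb9* and *Psmb10*, were set apart and used for comparison. This gave 42 of the 37451 rows, which carry 41 symbols, since *Psmd14* has 2 rows. The data were 2 RNA-Seq libraries, 1 from wild-type (WT) C57BL/6 BMDMs and 1 from ΔM BMDMs of C57BL/6 TTP fl/fl LysMCre mice, in which a Cre driven by the lysozyme M gene deletes the floxed TTP gene in myeloid cells. The LPS time is that of the study's protocol, and the sample titles end in LPS7 with no explanation of the number. Littermate mice were 7 to 9 weeks old. Cells of both genotypes were grown from bone marrow with CSF-1 from L929 cells, given 100 µM 4-thiouridine (4sU) over 16 h and 10 ng/ml lipopolysaccharide (LPS) over 6 h, so there was no unlabeled or unstimulated library to compare with. Ribosomal RNA was depleted before sequencing.

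The proteasome degrades proteins tagged with ubiquitin. Its barrel-shaped core is built of outer rings of alpha subunits, which gate the entrance, and inner rings of beta subunits, some of which hold the proteolytic sites. A regulatory particle caps the barrel: ATPases in its base unfold the substrate, other base subunits bind ubiquitin, and the lid removes the ubiquitin chain. In cells exposed to inflammatory signals such as interferon, alternative beta subunits replace the catalytic ones and form the immunoproteasome, which favors peptides for antigen presentation.

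Levels were given as FPKM, fragments scaled to exon length and library size, on which genes of different length can be compared. With 1 library per genotype there was no replicate, and hence no test, for any difference between WT and ΔM. Differences were expressed as the log2 ratio of ΔM to WT after adding 1 FPKM to each value where the mean of both libraries reached 1 FPKM. Adding 1 FPKM shrinks the ratios of low genes. Ratios past 0.322 on the log2 scale in either direction were counted. With 1 FPKM added to each value, this is a rise of at least 25% or the fall of the same log2 size. Intervals below are 95% exact (Clopper-Pearson) counting intervals of the FPKM ratio, from about 36500000 fragments in WT and 32500000 in ΔM as estimated from the table. They are approximate and cover counting error only, not the spread between mice or cultures.

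*Zfp36* itself was at 65.3 FPKM in WT and 16.7 in ΔM, so its transcript was lower but not absent in the library labelled ΔM. The 8 macrophage markers summed to 4001 FPKM in WT and 2864 in ΔM. They included *Csf1r* (104 and 119 FPKM) and *Cd68* (388 and 389.6 FPKM), and the lowest was *Mertk* (2.15 and 3.48 FPKM). The summed FPKM of the 5 B cell, 4 dendritic cell and 5 fibroblast markers stayed under 1 in each. Of the 5 T cell markers *Cd3e* was at 0, and *Lck* made up most of the sum (9.58 of 10.6 FPKM in WT). Of the 6 neutrophil markers *Ly6g*, *Elane* and *S100a9* were at 0 in both libraries, while *S100a8* was at 50.7 FPKM in WT and 100.02 in ΔM. The macrophage marker *Lyz2*, whose locus drives the Cre, was at 2481 FPKM in WT and 1356 in ΔM. It made up nearly all of the fall in the macrophage sum, and the part of the Cre in it was not tested. Fewer cells of a type and less RNA per cell cannot be told apart in such bulk samples.

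Of the 42 rows, 40 had a mean of at least 1 FPKM. Their median level was 19.4 FPKM in WT and 19.1 in ΔM, and 32 lay above the median protein-coding gene in WT (6.34 FPKM). The members that fell below the minimum were the tissue-restricted core subunits: *Psma8*, the alpha subunit of male germ cells, was at 0.27 FPKM in WT and 0.06 in ΔM, and *Psmb11*, the beta subunit of the thymic cortex, was at 0.00 and 0.01 FPKM. The 40 rows, which include assembly chaperones, activators and an inhibitor, spanned 94.2-fold in WT and 134-fold in ΔM. In WT they ran from *Psma3* at 2.44 FPKM to *Psmb4* at 229.7 FPKM. Most subunits of the core and the regulatory particle are assembled in equal numbers. The 18 rows of these subunits with no copy elsewhere in the genome (described below) spanned 17.4-fold in WT and 22.4-fold in ΔM. The order of the genes was nearly the same in both libraries (Spearman's rho 0.99 and Pearson's r of log2 values 0.99 over 40 genes, which share their lengths, their annotation and the mapping).

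**Figure D1:**
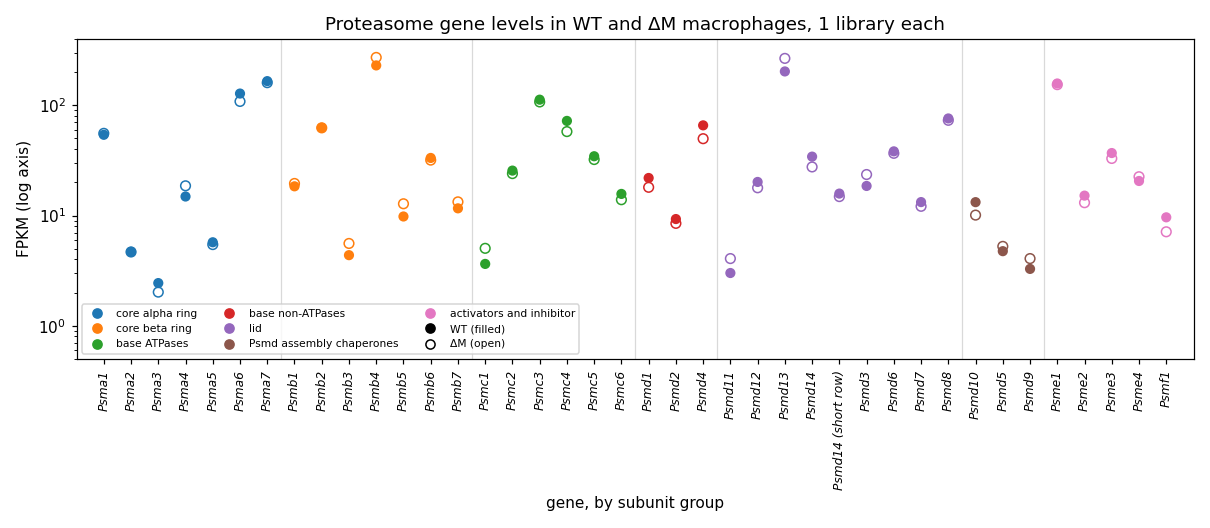
FPKM (log axis) of the 40 rows with a mean of at least 1 FPKM in the WT library (filled) and the ΔM library (open), ordered by subunit group. Levels differ far more between genes than between genotypes, from 2.44 FPKM for *Psma3* to 229.7 FPKM for *Psmb4* in WT.

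In the alpha ring of the core, levels fell into a high and a low set. *Psma7* was at 165 FPKM in WT and 160.2 in ΔM. *Psma6* was at 128 and 108 FPKM. *Psma1* was at 54.0 and 55.6 FPKM. These 3 subunits of the ring were thus well above the other 4 in both libraries. *Psma4* was at 14.9 FPKM in WT and 18.6 in ΔM. *Psma5* was at 5.72 and 5.45 FPKM. *Psma2* was at 4.69 and 4.67 FPKM. *Psma3* was the lowest of all 40 rows, at 2.44 and 2.02 FPKM. The median log2 ratio of the 7 alpha genes was -0.05, with values from -0.24 for *Psma6* to 0.30 for *Psma4*.

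In the beta ring, *Psmb4*, a subunit without proteolytic activity, had the highest level of any member, 229.7 FPKM in WT and 271 in ΔM. *Psmb2* was at 62.5 and 62.4 FPKM. *Psmb1* was at 18.4 and 19.5 FPKM. These are structural subunits too, as is *Psmb3*, which was far lower at 4.37 FPKM in WT and 5.58 in ΔM. The 3 catalytic subunits followed. *Psmb6*, which carries the caspase-like site, was at 33.3 and 31.8 FPKM. *Psmb7*, which carries the trypsin-like site, was at 11.6 and 13.3 FPKM, and the gene *Nek6*, which overlaps it on the opposite strand, at 23.9 and 15.1 FPKM. *Psmb5*, which carries the chymotrypsin-like site and is the target of bortezomib, was at 9.80 and 12.8 FPKM. The median log2 ratio of the 7 beta genes was 0.18 and 5 of the 7 ratios were above 0, but with each library scaled to the FPKM sum of all genes the median was -0.23 and all 7 were below 0.

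Each catalytic subunit was lower than the immunoproteasome subunit that replaces it. *Psmb8*, the counterpart of *Psmb5*, was at 275 FPKM in WT and 253 in ΔM, 28.04 and 19.8 times the level of *Psmb5*. *Psmb10*, the counterpart of *Psmb7*, was at 258 and 265 FPKM, 22.2 and 19.9 times the level of *Psmb7*. *Psmb9*, the counterpart of *Psmb6*, summed to 91.5 and 110.3 FPKM over its 2 rows, 2.75 and 3.47 times the level of *Psmb6*. Its higher row was at 69.0 FPKM in WT and 72.3 in ΔM (log2 ratio 0.07). The other row was at 22.5 and 38.0 FPKM (log2 ratio 0.73), the highest ratio of these genes, and *Psmb8* had the lowest (-0.12). The 2 rows of *Psmb9* overlap on the same strand, and reads from both cannot be told apart there. The immunoproteasome transcripts thus exceeded their constitutive counterparts in both genotypes after LPS. *Psmb5* has a near-identical copy in the genome (described below), whose part in the first of these ratios was not tested.

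The ATPases of the base, which form the ring that unfolds substrates, ranged over 30.9-fold in WT. *Psmc3* was at 112 FPKM in WT and 107 in ΔM. *Psmc4* was at 72.1 and 57.7 FPKM. *Psmc5* was at 34.5 and 32.2 FPKM. The remaining ATPases were lower. *Psmc2* was at 25.6 FPKM in WT and 24.0 in ΔM. *Psmc6* was at 15.7 and 13.9 FPKM. *Psmc1* was the lowest ATPase, at 3.64 and 5.04 FPKM, and the only one of the 6 with a ratio above 0. Of the other base subunits, *Psmd4*, a ubiquitin receptor, was at 65.7 FPKM in WT and 49.8 in ΔM. The scaffold subunits *Psmd1* and *Psmd2* were at 21.9 and 9.29 FPKM in WT, and at 18.03 and 8.49 FPKM in ΔM. All 3 log2 ratios of these base subunits were below 0, with a median of -0.27.

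In the lid, *Psmd13* had the second-highest level of all members, at 202.6 FPKM in WT and 266 in ΔM. *Psmd8* was at 75.9 and 73.0 FPKM. *Psmd6* was at 38.2 and 36.7 FPKM. *Psmd14* encodes the deubiquitinase that cuts ubiquitin chains off the substrate, and its main row was at 34.2 FPKM in WT and 27.6 in ΔM. Its other row, a short transcript of 338 nt inside the same gene and on the same strand, was at 15.8 and 14.9 FPKM, and reads from both rows cannot be told apart where they overlap. The remaining lid genes were lower than this main row in both libraries. *Psmd12* was at 20.2 FPKM in WT and 17.9 in ΔM. *Psmd3* was at 18.5 and 23.5 FPKM. *Psmd7*, the partner of *Psmd14*, was at 13.2 and 12.1 FPKM, and *Psmd11* was lowest, at 3.01 and 4.07 FPKM. The median log2 ratio of the 9 lid rows was -0.06.

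The chaperones that assemble the base all lay below the median level of the members in both libraries. *Psmd10*, known as gankyrin, was at 13.2 FPKM in WT and 10.1 in ΔM. *Psmd5* was at 4.75 and 5.25 FPKM. *Psmd9* was at 3.28 and 4.07 FPKM. Among the alternative activators, *Psme1* and *Psme2* encode the subunits of the interferon-inducible cap PA28. *Psme1* was at 158 FPKM in WT and 154 in ΔM, whereas *Psme2* was at 15.2 and 13.1 FPKM. *Psme3*, the nuclear member of that family, was at 36.9 and 32.9 FPKM. *Psme4*, the activator PA200, was at 20.6 and 22.5 FPKM. *Psmf1*, known as a proteasome inhibitor, was at 9.63 and 7.12 FPKM.

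Across all 40 rows, the log2 ratio of ΔM to WT had a median of -0.06 and ranged from -0.39 to 0.39, with 26 ratios below 0 and 14 above. The median was 0.03 over all 10765 genes that reached a mean of 1 FPKM and -0.0015 over the 8078 protein-coding genes among them. Under scaling to the FPKM sum of all genes the median was -0.49, with 39 ratios below 0 and 1 above. No member differed by 2-fold, whereas 5.69% of all genes were at least 2-fold higher in ΔM and 3.61% at least 2-fold lower. With 1 FPKM added to the deposited values, 5 of 40 (12.5%) passed 0.322 on the log2 scale upward in ΔM. They were *Psmd13*, *Psmc1*, *Psmb5*, *Psmd11* and *Psmd3*. The share past it upward was 21.2% of all genes and 14.2% of protein-coding genes. Under scaling to the FPKM sum of all genes *Psmd13*, *Psmb5*, *Psmd11* and *Psmd3* fell slightly below 0 and *Psmc1* stayed slightly above it. Downward, 0.322 was passed by 3 of 40 (7.5%), *Psmd4*, *Psmf1* and *Psmd10*, against 15.5% of all genes and 14.5% of protein-coding genes, and under that scaling by 28 of 40, beside 5492 of the 10765 genes. *Psmc4* at -0.317 and *Psma4* at 0.305 came just short of this size. That alternative scaling shifts the ΔM values by -0.44 on the log2 scale. In the FPKM sum it uses, snoRNA rows held 44.6% in WT and protein-coding rows 11.6%, and snoRNA and snRNA rows summed to 1.36 and 1.90 times as much in ΔM.

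Of the 5 members past 0.322 upward, *Psmd13* (chr7:148067867-148084542, plus strand, mm9) had the narrowest interval, with an FPKM ratio of 1.31 (1.26 to 1.37). *Psmd3* (chr11:98543868-98557293, plus strand) had a ratio of 1.27 (1.18 to 1.37). *Psmb5* (chr14:55232644-55236851, minus strand) had a ratio of 1.30 (1.09 to 1.56). The microRNA gene *Mir686*, which overlaps *Psmb5* on the same strand, was at 5.38 FPKM in WT and 32.4 in ΔM, and its part in the *Psmb5* value was not tested. *Psmc1* (chr12:101348396-101361574, plus strand) had a ratio of 1.38 (1.13 to 1.69). *Psmd11* (chr11:80242117-80286750, plus strand) had a ratio of 1.35 (0.932 to 1.98), from about 54 fragments in WT at its median transcript length of 686 nt. At its main transcript of 2848 nt the same FPKM would rest on more fragments, with a narrower interval. Whether that interval would hold 1 was not computed. Among those lower in ΔM, *Psmd4* (chr3:94836616-94846536, minus strand) had a ratio of 0.757 (0.713 to 0.804). *Psmf1* (chr2:151541548-151569922, minus strand) had a ratio of 0.739 (0.666 to 0.820). *Psmd10* (chrX:137482968-137491267, minus strand) had a ratio of 0.763 (0.671 to 0.869). In all, at the median transcript lengths, the interval lay above 1 for 7 members, below 1 for 10 and held 1 for 23. Thus 42.5% had an interval without 1, against 50.7% of protein-coding genes.

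**Figure D2:**
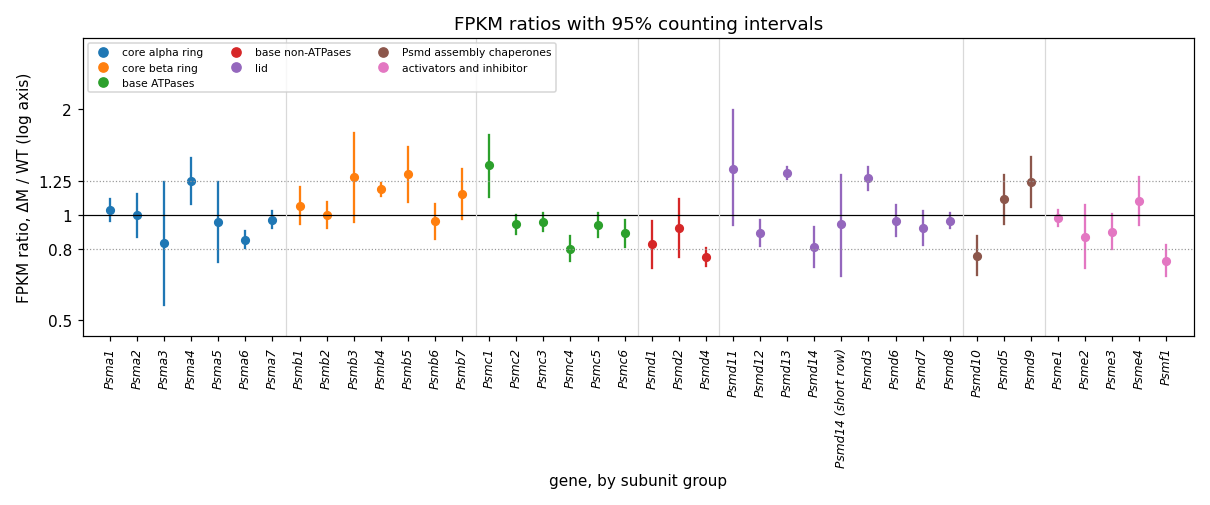
FPKM ratio of ΔM to WT (log axis, without the added 1 FPKM) with its 95% counting interval for the 40 rows, by subunit group, with dotted lines at 0.322 on the log2 scale in each direction. All ratios lie within 2-fold of 1, and the intervals widen for the low genes such as *Psma3* and *Psmd11*. Without the added 1 FPKM, *Psmb3* (1.277) and *Psma4* (1.251) also lie past the upper dotted line.

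Many proteasome genes have processed copies elsewhere in the genome. The authors kept uniquely mapped reads only, so a read that fits a gene and its copy equally well would be lost to both. Whether this happened was not tested on reads, and the rows of some copies stood above those of their genes (described below). The coding sequence of each member was therefore searched in the mm9 genome. Of the 40 rows, 24 had no copy at 85% identity over at least 50% of the coding sequence, 7 had a copy under 95% identity, and 9 had a copy at 95% identity or more. The stretches below are the 100 bases of coding sequence in which gene and copy differ most (gaps avoided, from the first base of the coding sequence), with differing bases in capitals. They are shown because they give the bases by which a read of that length could be assigned. *Psma3* and *Gm13835* (chr6:31091979-31092643) had no difference over 665 aligned bases, so bases 104 to 203 read the same in both.

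Psma3 and Gm13835: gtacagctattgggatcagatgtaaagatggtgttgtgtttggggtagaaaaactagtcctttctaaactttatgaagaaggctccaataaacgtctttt

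*Psme2* and *Psme2b-ps* (chr11:48758901-48759620) differed at 5 of 720 aligned bases, 3 of them within bases 444 to 543.

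Psme2: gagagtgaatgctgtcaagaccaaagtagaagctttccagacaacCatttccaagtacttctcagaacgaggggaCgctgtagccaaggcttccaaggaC
Psme2b-ps: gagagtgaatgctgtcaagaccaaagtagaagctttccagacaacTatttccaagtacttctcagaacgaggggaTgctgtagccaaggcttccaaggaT

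*Psma5* and *Gm8394* (chr10:84776314-84777039) differed at 8 of 726 aligned bases, 3 of them within bases 576 to 675.

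Psma5: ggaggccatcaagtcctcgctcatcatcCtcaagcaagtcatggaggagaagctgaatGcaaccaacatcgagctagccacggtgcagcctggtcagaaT
Gm8394: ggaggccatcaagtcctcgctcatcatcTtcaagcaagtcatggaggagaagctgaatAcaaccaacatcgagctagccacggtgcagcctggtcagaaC

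*Psmb5* and a place on chromosome 7 with no gene in the table (chr7:3181094-3181889) differed at 8 of 796 aligned positions besides 1 gap, 3 of them within bases 288 to 387.

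Psmb5: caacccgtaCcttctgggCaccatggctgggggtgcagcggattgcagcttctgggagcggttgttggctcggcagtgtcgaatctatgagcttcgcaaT
Copy of Psmb5: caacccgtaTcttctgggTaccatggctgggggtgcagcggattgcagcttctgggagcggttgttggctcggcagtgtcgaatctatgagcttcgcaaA

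*Psmd11* and *Gm14048* (chr2:130706602-130707869) differed at 25 of 1269 aligned positions besides 1 gap, 7 of them within bases 922 to 1021.

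Psmd11: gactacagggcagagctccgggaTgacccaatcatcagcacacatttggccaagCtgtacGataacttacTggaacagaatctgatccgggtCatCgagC
Gm14048: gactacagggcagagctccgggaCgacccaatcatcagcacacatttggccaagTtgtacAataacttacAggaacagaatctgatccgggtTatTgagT

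Levels were compared between members with and without such copies. The 9 members with a copy at 95% or more were *Psma3*, *Psma4*, *Psma5*, *Psmb3*, *Psmb5*, *Psmc1*, *Psmd2*, *Psmd11* and *Psme2*. They ranged from 2.44 to 15.2 FPKM in WT, with a median of 5.72 FPKM. The 24 rows with no copy had a median of 30.015 FPKM and ranged from 3.28 to 229.7 FPKM, so both ranges overlap. When assembly chaperones, activators and the inhibitor were left out, the 8 subunits with such a copy ranged from 2.44 to 14.9 FPKM and the 18 rows without one from 13.2 to 229.7 FPKM, which overlap only narrowly. This comparison was chosen after the values had been seen, and the part of the copies in the low levels was not tested. In the same way *Psmb5*, *Psmc1* and *Psmd11*, which are 3 of the 5 members higher in ΔM, have such a copy. The median log2 ratio was 0.29 over the 9 members with a copy at 95% or more. It was -0.0051 over the 7 rows with a copy under 95% and -0.09 over the 24 rows without a copy. Of the 9 ratios, 5 lay above 0 and 4 below, from -0.20 to 0.38. Of the 24 ratios, 6 lay above 0 and 18 below, from -0.39 to 0.33. Under scaling to the FPKM sum of all genes the 3 medians were -0.11, -0.36 and -0.51.

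**Figure D3:**
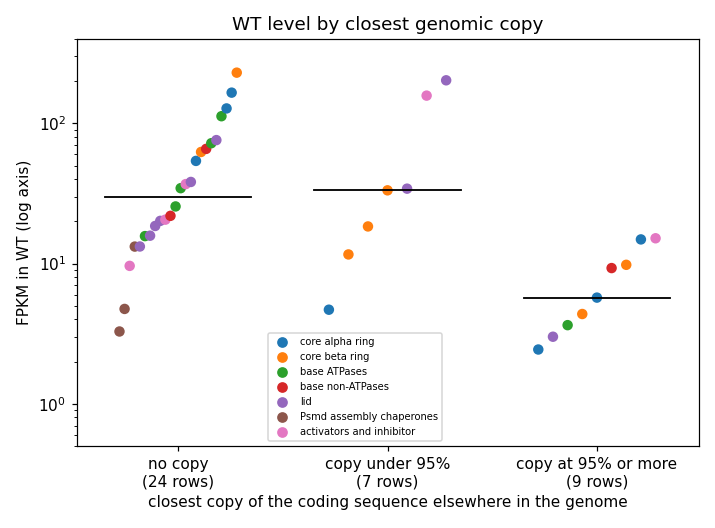
FPKM in WT (log axis) by the closest copy of the coding sequence elsewhere in the genome, with 1 point per row, colored by subunit group, and horizontal lines at the medians. The 9 rows with a copy at 95% identity or more have a median of 5.72 FPKM, and none exceeds 15.2 FPKM.

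Several copies had rows of their own in the table. The copies of *Psma3* summed to 17.1 FPKM in WT and 19.9 in ΔM, 7.01 and 9.86 times the value of *Psma3*. Of these copies, *Gm13835*, identical to *Psma3* over the aligned bases, was at 16.5 and 19.0 FPKM. How reads were divided between a gene and its copy was not tested. The row of *Psme2b-ps* was at 79.4 and 88.0 FPKM, 5.24 and 6.73 times *Psme2*. The copies of *Psma5* summed to 16.9 and 17.5 FPKM, 2.96 and 3.21 times *Psma5*. The copies of *Psmb3* summed to 6.43 and 7.07 FPKM, 1.47 and 1.27 times *Psmb3*. For these genes the table thus gave the copies a higher level than the gene. The log2 ratio of *Psme2* changed sign from -0.20 to 0.10 when the row of its copy was added, that of *Psma3* from -0.19 to 0.16 and that of *Psma5* from -0.06 to 0.02. The log2 ratio of *Psmb7*, which was the beta ring's median, went from 0.18 to 0.0049. Both values of *Psmd11* stayed above 0, at 0.34 without and 0.40 with *Gm14048*. Levels and ratios of these genes are therefore uncertain in the table.

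**Figure D4:**
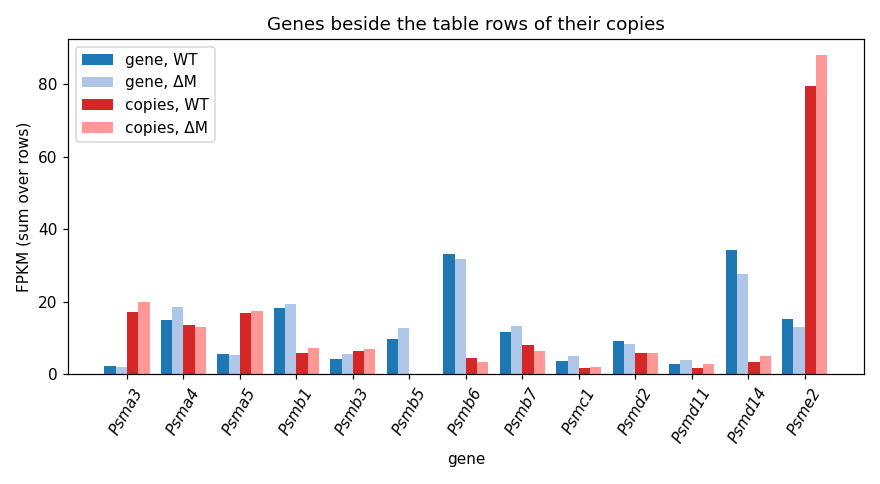
FPKM of 13 genes that have copies with rows in the table (blue) beside the summed FPKM of those rows (red), in WT (dark) and ΔM (light). *Psme2b-ps* stands at 79.4 FPKM in WT, above *Psme2* at 15.2 FPKM.

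Genes that act with the proteasome also stayed within 2-fold. Of the 5 core assembly chaperones, *Psmg1* was at 2.97 FPKM in WT and 4.18 in ΔM (log2 ratio 0.38) and *Psmg3* had the lowest log2 ratio, -0.24. Of 10 other subunits and associated proteins with a mean of at least 1 FPKM, none passed 0.322 in either direction, with log2 ratios from -0.31 for *AI314180* to 0.30 for *Adrm1*, a ubiquitin receptor. Among 5 transcription factors and genes of their processing, *Nfe2l2*, the regulator of the oxidative stress response, was at 31.5 FPKM in WT and 24.3 in ΔM (log2 ratio -0.36). *Nfe2l1*, which drives proteasome genes when proteasome activity is limiting, was at 18.9 and 16.2 FPKM (log2 ratio -0.21), and *Ddi2*, the protease that activates it, had the highest log2 ratio of that list, 0.18. Among 6 ubiquitin genes and E1 enzymes, the log2 ratios ran from -0.34 for *Rps27a* to 0.22 for *Ubb*. Among 6 genes of the p97 segregase and its cofactors, *Faf1* was highest at 0.52 and *Nsfl1c* lowest at -0.41. Of the 36 rows in these lists and that of the immunoproteasome, 3 (8.3%) passed 0.322 upward and 4 (11.1%) downward, against 14.2% and 14.5% of protein-coding genes.

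The study's lists of sites bound by TTP or HuR held 1 member each, 2.38% of the 42 rows, while the genes read from the lists came to 1.32%, 1.23% and 0.705% of all rows in the table. These shares have unlike bases, since 40 of the members but only 10765 of all 37451 rows reached a mean of 1 FPKM. No excess of members can be read from them. *Psme4* was the only member in the lists of TTP sites at 6 h (496 genes read) and at 3 h (461 genes read) of LPS, and *Psmd11* the only one in the list of HuR sites (264 genes read from a copy that may be shortened). The TTP site of *Psme4* at 6 h lies in an intron at chr11:30692148-30692151 (plus strand, mm9). The site is 4 bases long (ttta) and is shown with 10 bases on each side. The AU-rich pentamer ATTTA, in capitals, lies in the flank and not in the site.

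Psme4 intron, 6 h: gttttgtttgtttattATTTAttt
Psme4 intron, 3 h: tttttaaaaATTTATTTA

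The second sequence is a site at chr11:30682768-30682785, seen at 3 h, which holds the pentamer itself. Another 3 h site, at chr11:30692139-30692153, spans the 6 h site. *Psme4* was at 20.6 FPKM in WT and 22.5 in ΔM, and the interval of its ratio (1.09) ran from 0.932 to 1.28. That interval rests on a median transcript length of 619.5 nt and would be narrower at the main transcript of 6491 nt. The HuR site of *Psmd11* at chr11:80286189-80286200, annotated as both 3' untranslated region and intron, read tgttgcatttga, and a second site of 3 bases (tta) lay at chr11:80286178-80286180. The bases around the HuR sites were not searched.

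Promoters of 34 members were found among those of 27025 genes (RefSeq, GRCm38.p6, 250 bases before to 50 bases after the start site, both strands searched). The motif TGACNNNGC, the core of the antioxidant response element, was found in 6 of 34 member promoters (17.6%) and in 14.0% of all. CCAAT was found in 13 (38.2%) and in 41.1% of all. The interferon-stimulated response motif, searched as GAAA followed by any 2 bases and GAAA, was found in 4 (11.8%), those of *Psmb3*, *Psmd4*, *Psmd9* and *Psme1*, and in 4.0% of all. The match in *Psme1*, which is known to be induced by interferon, is shown with 8 bases on each side and the motif in capitals, read on the strand opposite to the gene.

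Psme1 promoter: cgggaaggGAAAGCGAAAgcacagct

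Of the 4 genes, *Psme1* was at 158 FPKM in WT and the others at 65.7 FPKM or less. A match is a description of letters and not a measured site.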

How the data were processed

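RNA-Seq of rRNA-depleted RNA was measured in 1 WT and 1 ΔM library. The authors used Cutadapt for trimming, Segemehl for mapping to mm9 and Cufflinks on Ensembl exons, with unique alignments only, and deposited FPKM per gene. Whether counting used strand is not given in the sources used here. The ΔM column, whose heading has lost a character (FPKM ?M), was matched by name. No count test was run on the deposited FPKM, of which 1 value of ΔM was not a number. From these values, log2 ratios were computed after adding 1 FPKM (mean of at least 1 FPKM). Genes were matched to GENCODE M1 (37039 of 37451). Depth was estimated from low FPKM of single-transcript genes of 260 to 700 nt as whole multiples of 1 fragment (tolerance 0.1): 92.0% of 1161 WT values and 92.7% of 1131 ΔM values were whole. Simulated depths were recovered within 0.6%, and 95.1% of intervals held the true ratio in simulated data of 8056 genes. These estimates rest on the median annotated transcript length. Intervals would be narrower where the main transcript is longer, so which of them hold 1 depends on that choice. FPKM hold no count of molecules, so intervals cover counting error only. Copies were searched with blastn 2.17.0 (85% identity, 100 nt, 50% of the coding sequence). Every member was named. Of the immunoproteasome and the other lists of genes that act with the proteasome, the highest and lowest ratios were named in each. Members and lists were chosen with earlier results of these data known. Python 3.11.15, numpy 2.4.6, pandas 2.3.3, scipy 1.17.1, biopython 1.88 and matplotlib 3.10.9 were used. Alternatives covered the pseudocount, the minimum, the scaling, the fold and the members used. Proteins were not compared here.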

Additional observations from a re-analysis of the deposited data

How the results depend on the processing

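No paired analysis was possible because each genotype has 1 library, which also means that no replicate could be left out and that no difference was tested. Of 111 recomputed medians, counts and ranges, 77 stayed close to the reported value, as did 231 of 270 recomputed ratios of single genes. The median over all members (-0.06) moved to -0.49 when each library was scaled to the FPKM sum of all genes, and that scaling moved group medians: alpha ring -0.42, beta ring -0.23, ATPases -0.52, other base subunits -0.68, lid -0.49, activators and inhibitor -0.59. The median of the 3 assembly chaperones (0.12) was -0.24 under it and -0.36 with a minimum of 10 FPKM, which leaves *Psmd10* alone, both within the range of these genes. It also turned *Psmd3* (-0.0942), *Psmd11* (-0.0065), *Psmb5* (-0.0552) and *Psmd13* (-0.0506) below 0. Members past 0.322 on the log2 scale upward (5) became 1 with a pseudocount of 10, 3 with a minimum of 10 FPKM, 3 after centring, 0 under that scaling, 0 at folds of 1.5 and 2, and 2 without members that have a copy at 95% or more (chosen after seeing the data). Members past it downward (3) became 1 with a pseudocount of 10, 5 after centring, 28 under that scaling, and 0 at folds of 1.5 and 2. Over all genes, those past it upward (2279) became 1153, 1014 and 945 with a pseudocount of 10, a minimum of 10 FPKM and that scaling, and downward (1664) became 679, 596 and 5492. Those at least 2-fold higher (613) became 297, 306 and 358, and those lower (389) became 131, 130 and 662. The ratio of highest to lowest level (94.2 in WT, 134 in ΔM) became 851 and 4524 with no minimum over members above 0 in both libraries (without *Psmb11*, at 0 in WT), and 66.7 in ΔM without members that have such a copy.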
